A study of Mus musculus with 85 samples.

Results

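The miR-199 and miR-214 family was followed through 6 rows of a miRNA count table from mouse heart: mmu-miR-199a-3p, mmu-miR-199b-3p, mmu-miR-199a-5p, mmu-miR-199b-5p, mmu-miR-214-3p and mmu-miR-214-5p. The rows were chosen by name, as the mature products of the Dnm3os transcript and of its paralogs, out of 1977 rows in the table, 548 of which held a count in any library. All 6 rows held counts, and only mmu-miR-199a-3p and mmu-miR-199b-3p were among the 51 miRNAs kept by a filter on low counts.

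The libraries were made from total RNA of heart. The donors were females from the HMDP (Hybrid Mouse Diversity Panel, a set of inbred mouse strains), aged 16 weeks, whose chow of the first 8 weeks was replaced by a diet rich in fat and sucrose (HF/HS) over the following 8 weeks. All 85 libraries carry these same labels, so there was no control group and no comparison between conditions. The labels name neither the strain nor the number of animals behind a library, and the study's own statements on the number of strains differ, so differences between strains and between individual hearts cannot be told apart.

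The miR-199a and miR-214 hairpins on mouse chromosome 1 are cut from Dnm3os, a noncoding RNA transcribed from the strand opposite to the dynamin 3 gene Dnm3. This transcript is known from mesenchymal cells, where the transcription factor Twist1 drives it, and in the heart from fibroblasts and other cells of the connective tissue. Dicer cuts each hairpin into a 5p and a 3p strand, and usually 1 of these arms stays loaded in the silencing complex while the other is lost. As background, miR-199a-5p is known to target Hif1a, the oxygen-sensing transcription factor, and Sirt1, a deacetylase. miR-199a-3p is known for pushing cardiomyocytes to divide, and miR-214 for targeting the sodium-calcium exchanger Slc8a1 and the histone methyltransferase Ezh2.

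The hairpins are shown because they decide which rows can be told apart. Sequences are from RefSeq for the GRCm38.p6 build, 5′ to 3′ on the transcribed strand, and capitals mark the mature arms listed there. Mir199a-2 lies at chr1:162217814-162217923 (plus strand) and Mir214 at chr1:162223368-162223477 (plus strand), with 5444 bases between them. Both overlap an exon of Dnm3os and lie in an intron of Dnm3 on the minus strand. Mir199b lies at chr2:32318460-32318569 (plus strand) in an intron of Dnm1, and Mir199a-1 at chr9:21496495-21496564 (minus strand) in an intron of Dnm2, each again opposite to its dynamin host gene.
Mir199a-2: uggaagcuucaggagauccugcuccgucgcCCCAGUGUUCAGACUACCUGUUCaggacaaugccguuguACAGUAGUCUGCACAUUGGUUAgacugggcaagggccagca
Mir214: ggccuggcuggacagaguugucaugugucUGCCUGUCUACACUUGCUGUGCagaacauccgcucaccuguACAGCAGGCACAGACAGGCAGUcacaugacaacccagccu
Mir199b: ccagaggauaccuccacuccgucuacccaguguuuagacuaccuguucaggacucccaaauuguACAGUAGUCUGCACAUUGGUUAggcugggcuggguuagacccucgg
Mir199a-1: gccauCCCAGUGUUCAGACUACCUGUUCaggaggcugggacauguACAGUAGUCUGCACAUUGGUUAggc

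The mature strands follow with the seed, bases 2 to 8 and the part that pairs with targets, in capitals. They are shown because the seed groups the rows. The 3p rows of miR-199a and miR-199b are the same 22 bases and share their seed only with each other among the miRNAs matched. The seed of miR-214-3p is also that of mmu-miR-761, which had 0 counts, and no other matched miRNA shares the seed of miR-199a-5p or of miR-214-5p. The sequence table held 5 of the 6 members. mmu-miR-199b-5p is named only, and the matching of seeds leaves it out. Bases 2 to 8 of miR-199a-5p are unchanged in the nearest stretch of the Mir199b hairpin, described below. miR-199b-5p may therefore have the same seed, depending on where its 5′ end lies.
mmu-miR-199a-3p: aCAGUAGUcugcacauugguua
mmu-miR-199b-3p: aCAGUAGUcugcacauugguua
mmu-miR-199a-5p: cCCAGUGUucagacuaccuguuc
mmu-miR-214-3p: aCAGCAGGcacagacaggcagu
mmu-miR-214-5p: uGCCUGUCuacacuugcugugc

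A read of the 3p strand therefore fits 3 hairpins on 3 chromosomes, and a read of miR-199a-5p fits 2. The nearest stretch of the Mir199b hairpin to miR-199a-5p differs from it by 1 base of 23, C10U, counted from the 5′ end of miR-199a-5p with its base first. No base separates the 3p rows.

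The libraries were shallow, from 1457 to 30202 counts each (median 12248), with 95 to 213 miRNAs detected per library and 1142199 counts in all. The library at 1457, numbered 14 in the labels, stands far below the next at 5442. The log2 levels of the kept miRNAs other than the family fell into 2 sets of libraries along a first principal component that held 75.3% of the variance: set A of 58 libraries (1457 to 30202 counts) and set B of 27 libraries (5442 to 19245 counts). Set B holds the libraries numbered 1 to 10, 15 to 18, 20, 21 and 49 to 59, and nothing in the labels names the split. The sets were found in the data, so differences between them are given as values with no test, and every relation below is given within each set. For every pair of libraries the chi-square of their counts over its degrees of freedom lay above 1, the value for sampling noise alone. Whether the closest pairs differed by more than sampling noise was not tested.

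miR-199a-3p was by far the most abundant product of the family. It had 9607 counts, or 8411 CPM (counts scaled to the sum of all miRNA counts in the library, as in edgeR; 95% Wilson interval 8245 to 8580), which placed it at rank 23 of the 548 detected rows. It was counted in all 85 libraries, with 20 counts at the lowest in library 14, a median of 108 and 224 at the highest. miR-199b-3p, the identical sequence, had 9327 counts and rank 24. The Wilson intervals here cover counting error only.

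miR-199b-3p followed miR-199a-3p almost read for read. Its count was 97.1% of that of miR-199a-3p over all libraries, from 88.9% in library 39, with 48 against 54 counts, to 100% in the 8 libraries where the rows were equal. In the other 77 libraries miR-199b-3p was the lower row, by a median of 3 and at most 13 counts, and in 0 libraries was it the higher. Over all libraries the rows differed by 280 counts. The rows are not independent measurements, and miR-199a-3p alone is used in every sum and ratio that follows.

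The 5p arms were an order lower. miR-199a-5p had 996 counts (872 CPM, 95% Wilson interval 819.5 to 927.8; rank 62), with 0 counts in library 14, a median of 11 and a highest count of 33. miR-199b-5p had 491 counts (430 CPM, 393.5 to 469.6; rank 89), with a lowest of 0, a median of 5 and a highest of 16, and was counted in 80 libraries. The intervals of these rows do not meet, and both lie far below miR-199a-3p.

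miR-214 was close to absent from the counts. miR-214-3p had 6 counts in 6 libraries (5.25 CPM, 2.41 to 11.5) and miR-214-5p had 21 counts in 19 libraries (18.4 CPM, 12.0 to 28.1). No library held more than 2 counts over both arms, and 62 libraries held 0. A count of 0 allows up to 245 CPM at the median library total, from 99.3 CPM in the deepest library to 2059 CPM in the shallowest, so differences in miR-214 between hearts were not detectable at this depth. The Wilson intervals of the 2 arms do not meet.

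Without miR-199b-3p the family made up 11121 counts, or 0.974% of all miRNA counts, and miR-199a-3p was 86.4% of that sum. miR-199a-3p had 356 times the counts of both miR-214 arms together, and miR-199a-5p had 36.9 times. These ratios set 3 miR-199 loci, or 2 in the case of miR-199a-5p, against the single Mir214 locus, so they are not a ratio within Dnm3os. Among 28 pairs of hairpins within 10000 bases on the same strand, in which the higher member had at least 1000 counts, miR-214-5p made up 0.218% of the summed counts of miR-199a-3p and miR-214-5p, the fourth lowest share of a lower member in these pairs. The lower shares were those of Mir26a-2 with Mir546 and of Gm23363 with Mir199b, each with a lower member at 0, and of Mir206 with Mir133b at 0.0597%.

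**Figure D1:**
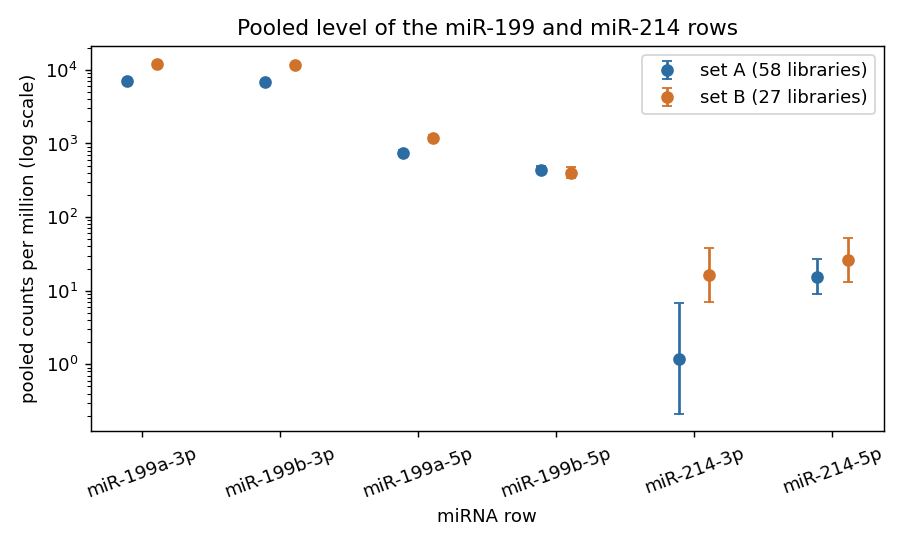
Pooled CPM of the 6 rows (log axis) in set A (58 libraries, blue) and set B (27 libraries, orange). Points are pooled counts divided by pooled library totals and bars are 95% Wilson intervals for counting error, which are smaller than the points for the 3p rows of miR-199; the miR-199 rows span from 399 to 11827 CPM and the miR-214 rows from 1.20 to 25.9 CPM.

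The plot of pooled levels shows the same order of the miR-199 rows in both sets. miR-199a-3p stood at 7148 CPM in set A and 11827 CPM in set B, 1.66 times as high, and miR-199a-5p at 753 and 1193 CPM. miR-199b-5p did not share this step, with 441 CPM (95% Wilson interval 398.5 to 488.8) in set A and 399 CPM (334.4 to 475.9) in set B. Set A held 13 counts of miR-214-5p and 1 of miR-214-3p, and set B held 8 and 5. Whether the sets differ in sample handling or in the hearts cannot be told apart.

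On the log2 CPM scale after normalization by edgeR's trimmed mean of M values (TMM), miR-199a-3p ran from 12.49 in library 46 to 14.01 in library 21, with its median at 13.08. The mean of set A was 13.01 ± 0.29 (SD, n = 58), that of set B 13.46 ± 0.23 (SD, n = 27), and they differed by 0.45. The sets overlapped, with 22 libraries of set A above the lowest of set B and 24 of set B below the highest of set A. The median difference of the 51 kept miRNAs was 0.19, and miR-199a-3p was rank 20 among them from the highest, so its step between the sets lay well inside those of the other miRNAs. miR-199a-5p had a median of 9.98 with an SD of 0.55, and miR-199b-5p a median of 9.13 with an SD of 0.72 over the 85 libraries.

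**Figure D2:**
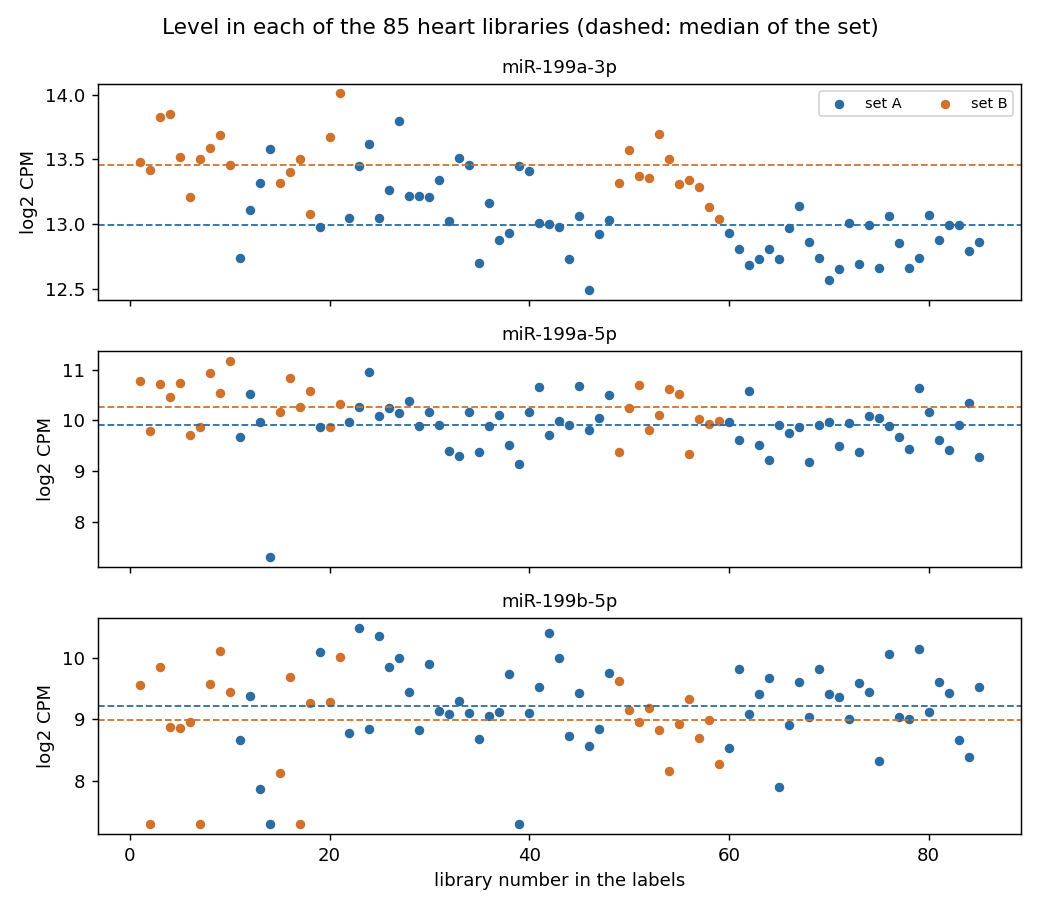
Level (log2 CPM, TMM-normalized, prior count 2) of miR-199a-3p, miR-199a-5p and miR-199b-5p in each of the 85 libraries, by library number in the labels, coloured by set; dashed lines are the medians of the sets. miR-199a-3p runs from 12.49 to 14.01, with set B around 13.46 and set A around 12.99, while the 5p rows scatter more widely and reach down to 7.30, the value given to 0 counts.

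The plot by library number also shows that set A is broken by the set B libraries 49 to 59. miR-199a-3p was 13.15 ± 0.30 (SD, n = 32) in the set A libraries 11 to 48 and 12.84 ± 0.15 (SD, n = 26) in the set A libraries 60 to 85. The highest value of the latter run was 13.14, below the mean of the former, though the runs overlapped. The library totals also differed, with medians of 11120 and 17665 counts. This split was chosen after the values were seen, and the part of depth or of run in the level was not tested.

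miR-199a-3p varied between libraries by more than counting error, by an amount near or below the middle of the kept miRNAs. A chi-square of its counts against 1 common share of the scaled totals gave 6.64 per degree of freedom over all libraries (chi-square test with Benjamini-Hochberg adjustment, adjusted p = 6.75e-71), where 1 is counting error alone. Set A alone gave 3.94 (adjusted p = 1.86e-21), and set B alone 3.58 (adjusted p = 2.70e-09). The size depends on the scaling, with 12.9 for plain CPM and 4.01 without a filter over all libraries, and 6.09 for plain CPM within set A. Nearly all kept miRNAs passed this test, 98.0% over all libraries, 96.1% within set A and 92.2% within set B, a background against which the call says nothing particular about the family. The medians of the 51 kept miRNAs were 12.5, 3.92 and 5.06, and miR-199a-3p was rank 32, 25 and 34 from the highest value. This value grows with counts as well as with variation. By the SD of log2 CPM miR-199a-3p was rank 41, 31 and 42 from the highest. The biological coefficient of variation estimated by edgeR, the SD between libraries as a share of the mean beyond counting error, was 0.232 for miR-199a-3p, against a median of 0.330 and a range from 0.124 to 0.909, rank 39 of 51.

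**Figure D3:**
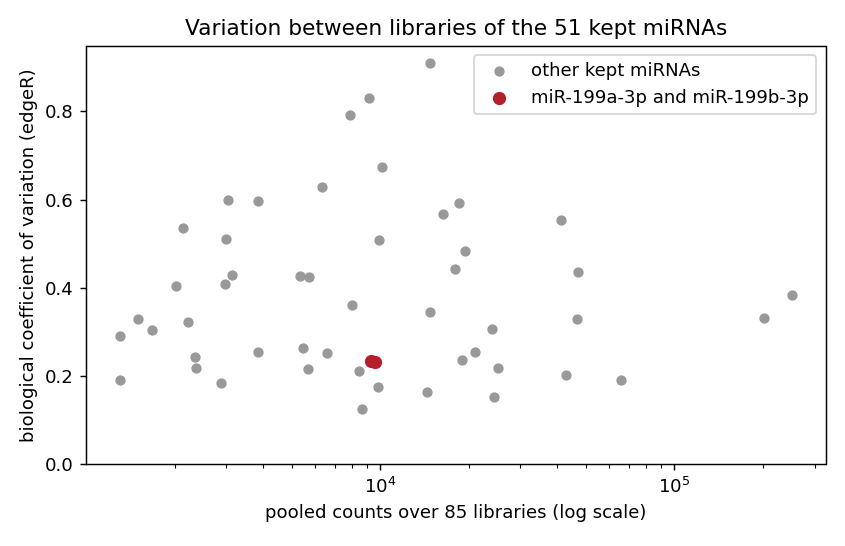
Biological coefficient of variation (edgeR, all 85 libraries) of the 51 kept miRNAs against their pooled counts (log axis). The overlapping red points are miR-199a-3p and miR-199b-3p, at 0.232 and 0.233, below the median of 0.330 of all kept miRNAs.

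The runs of set A gave different values for miR-199a-3p. In the libraries 11 to 48 its chi-square over degrees of freedom was 3.89 (adjusted p = 3.36e-12), in a run where 90.2% of the kept miRNAs passed. In the libraries 60 to 85 it was 1.29 (adjusted p = 0.179), in a run where 76.5% passed, and miR-199a-3p ranked 43 of 51. In those 26 libraries, with 2858 counts of miR-199a-3p between them, variation beyond counting error was therefore not detectable by this test, although most kept miRNAs showed it. The difference between the runs was not tested.

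The 5p rows, which missed the filter, were tested among the 93 miRNAs with a mean of at least 5 counts. The chi-square over degrees of freedom of miR-199a-5p was 1.70 (adjusted p = 8.05e-05) over all libraries, 1.40 within set A (adjusted p = 0.0345) and 1.65 within set B (adjusted p = 0.0284). miR-199b-5p had 1.88 (adjusted p = 2.66e-06), 1.82 (adjusted p = 0.000264) and 1.80 (adjusted p = 0.0112). Without any filter on rows the within-set calls of miR-199a-5p were lost, with an adjusted p of 0.274 in set A and 0.0737 for set B, as was that of miR-199b-5p in set B (0.200). Of these 93 miRNAs 93.5% passed over all libraries, 76.3% within set A and 76.3% within set B. With a median of 11 and 5 counts per library the 5p rows sit much nearer to counting error than the 3p row, and a smaller chi-square at fewer counts does not mean a smaller biological variation.

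The 3p arm outweighed the 5p arm in every library. miR-199a-5p was 9.39% (95% Wilson interval 8.85 to 9.96) of the pooled counts of the miR-199a arms, 9.65 counts of 3p for each count of 5p. Since the 3p row also takes reads of Mir199b, the ratio with both 5p rows was computed too. They made up 13.4% (12.8 to 14.1), or 6.46 counts of 3p for each of 5p. Single libraries ran from 0%, in library 14 with 20 counts of 3p and 0 of 5p, through a median of 13.5% to 26.6%. In set A the pooled share was 14.3% (13.5 to 15.2) and in set B 11.9% (10.9 to 12.9).

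Variation of the miR-199a arm ratio between libraries was not detectable beyond counting error. A chi-square of the miR-199a-3p and miR-199a-5p counts by library gave 1.25 per degree of freedom (adjusted p = 0.0734), and 85.7% of the other 7 precursors, those whose arms each reached 500 counts, passed the same test. Within set A it was 1.19 (adjusted p = 0.239), where 14.3% of these precursors passed, and within set B 1.41 (adjusted p = 0.109), where 71.4% passed. With both 5p rows the value was 1.61 over all libraries (adjusted p = 0.000538), and it missed the threshold within set A (1.40, adjusted p = 0.0912) and, narrowly, within set B (1.60, adjusted p = 0.0510, and 0.0464 when only libraries with at least 20 counts over each pair were tested). With some 11 counts of miR-199a-5p in a typical library, only large shifts of the ratio would have been seen.

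Of the 5p reads, miR-199b-5p took 33.02% (30.7 to 35.5), with single libraries from 0% through a median of 30.6% to 63.6%. The share varied beyond counting error over all libraries, its chi-square over degrees of freedom being 1.64 (adjusted p = 0.000377). Pooled within set A it was 36.9% (34.01 to 39.99) and within set B 25.1% (21.4 to 29.1). These intervals leave out the spread between libraries, and the difference between the sets was not tested. Within the sets its variation missed the threshold, at 1.43 (adjusted p = 0.0912) in set A and 1.39 (adjusted p = 0.109) in set B. Over the set A libraries with at least 20 counts of the pair it passed, at 2.48 (adjusted p = 0.00173). miR-214 showed the opposite arm to the fore, with 77.8% (59.2 to 89.4) of its 27 counts on miR-214-5p. The split was 13 against 1 in set A and 8 against 5 in set B, where the share of 61.5% (35.5 to 82.3) did not exclude an even one.

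**Figure D4:**
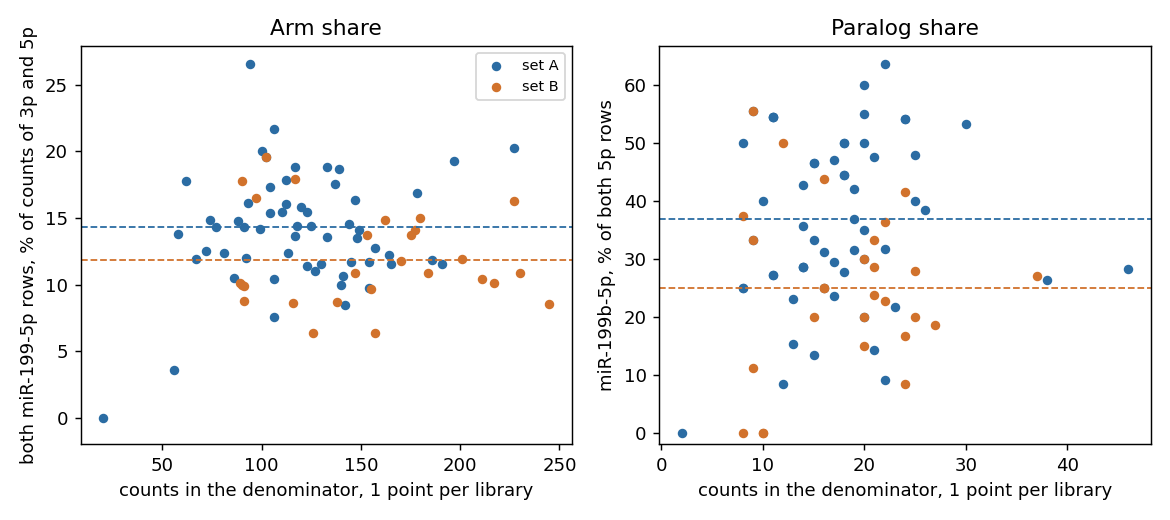
Left, the share of both miR-199-5p rows in the counts of miR-199a-3p and both 5p rows; right, the share of miR-199b-5p in both 5p rows; 1 point per library against the counts it rests on, with pooled shares of each set as dashed lines. The arm share scatters around 14.3% (set A) and 11.9% (set B) and the paralog share around 36.9% and 25.1%, with the widest scatter where the counts are few.

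No joint rise and fall of the arms was detectable, a question these counts could hardly decide. The 5p rows had medians of 11 and 5 counts per library. Counting error at such counts lowers r even between rows held at a constant ratio. Of 6 relations between log2 levels of miR-199a-3p, miR-199a-5p and miR-199b-5p, 3 in each set, 0 passed (two-sided permutation test with Benjamini-Hochberg adjustment over the 6). In set A the Pearson r of miR-199a-3p with miR-199a-5p was 0.023 (permutation adjusted p = 0.864; Spearman rho 0.272, adjusted p = 0.236), with -0.097 without libraries 24 and 27. This r turned on library 14, the shallowest: it was 0.263 (permutation adjusted p = 0.238) without that library. The r between the 5p rows in set A was 0.346 (permutation adjusted p = 0.0565; rho 0.169), it was 0.188 without libraries 14 and 24, and leaving out library 14 alone lowered it to 0.148. In set B the 3 values of r lay between 0.280 and 0.283 (permutation adjusted p = 0.237 for each).

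The relation of miR-199a-3p with other miRNAs was described over the 49 other kept miRNAs, by permutation tests adjusted over both sets together. In set A 11 passed, 22.4% of the 49, with 5 positive and 6 negative, and in set B 1 passed, 2.04%. The median r over the 49 was 0.02 (set A) and 0.05 (set B). In neither run of set A alone did any pass: 0 of 49 in libraries 11 to 48 and 0 of 49 in libraries 60 to 85, with fewer libraries in each. Most of the 11 called in set A had an r of smaller size in each run. In libraries 11 to 48 the exception was miR-208a-3p, at -0.50 against -0.46 in set A. In libraries 60 to 85 it was miR-23a-3p, at 0.49 against 0.44. miR-125a-5p went from 0.57 in set A to 0.48 in libraries 11 to 48 and -0.06 in libraries 60 to 85. let-7f-5p went from 0.40 to 0.25 and 0.01.

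Of the 6 negative relations in set A, 3 were with listed cardiomyocyte miRNAs. The list of cardiomyocyte miRNAs had 4 members, and the 3 were miR-1a-3p, the most abundant miRNA of the list and a brake on muscle growth (r = -0.50, rho -0.46, adjusted p = 0.00490 for r), miR-208a-3p, encoded in a myosin heavy chain gene (r = -0.46, rho -0.45, adjusted p = 0.00843), and miR-499-5p, also encoded in a myosin gene (r = -0.44, rho -0.42, adjusted p = 0.00931). When the pair of libraries most distant from the median of miR-199a-3p was left out, r came to -0.50, -0.48 and -0.43. miR-133a-3p had an r of 0.16 (adjusted p = 0.413). Outside the list, the negative relations were with miR-30e-5p, miR-101a-3p and miR-1b-5p, another row named for miR-1. miR-1b-5p had 251291 counts against 202280 of miR-1a-3p. Whether these rows are independent measurements was not tested. For miR-1b-5p r was -0.44 (permutation adjusted p = 0.00843), with -0.36 in libraries 11 to 48 and -0.20 in libraries 60 to 85. In the libraries 11 to 48 the r of miR-1a-3p was -0.39 (permutation adjusted p = 0.261; rho -0.19) and in 60 to 85 -0.19 (adjusted p = 0.702), and its own mean log2 CPM moved from 17.57 ± 0.26 (SD, n = 32) to 17.80 ± 0.18 (SD, n = 26) between these runs. The values of r in the same runs were -0.50 (permutation adjusted p = 0.165; rho -0.47) and -0.16 for miR-208a-3p, and -0.30 and -0.16 for miR-499-5p. In set B 0 of the 4 passed, with a median r of -0.08. CPM values of a library are shares of 1 total, and in bulk hearts fewer cells of a type and less RNA per cell cannot be told apart.

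The miRNAs most like miR-199a-3p, by the mean of r in the 2 sets, were let-7f-5p (0.40 in set A and 0.48 in set B), miR-125a-5p (0.57 and 0.16), miR-322-5p (0.27 and 0.44), miR-23a-3p (0.44 and 0.18) and let-7c-5p (0.36 and 0.23). miR-214-3p could not be given such a list with 6 counts. None of the 5 most like miR-199a-3p passed in set B, and miR-322-5p passed in neither set (permutation adjusted p = 0.126 and 0.0882). The set A calls of let-7f-5p and let-7c-5p were lost without a filter (0.386 and 0.619). They were also lost with the total held fixed (0.0593 and 0.378). In libraries 11 to 48 and 60 to 85 the r of let-7c-5p was 0.21 and 0.04. A single miRNA, miR-30e-5p, passed in both sets, with r = -0.42 in set A (rho -0.39, adjusted p = 0.0130) and r = -0.63 in set B (rho -0.63, adjusted p = 0.00843), and r = -0.56 in set B without the 2 farthest libraries. Its r was -0.34 in libraries 11 to 48 and 0.03 in libraries 60 to 85. Without a filter on low counts neither call held, the r of set A being -0.295 (permutation adjusted p = 0.442) and that of set B -0.0153, and the set A call was also lost with plain CPM (adjusted p = 0.379). It is named because it was the only call of set B.

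**Figure D5:**
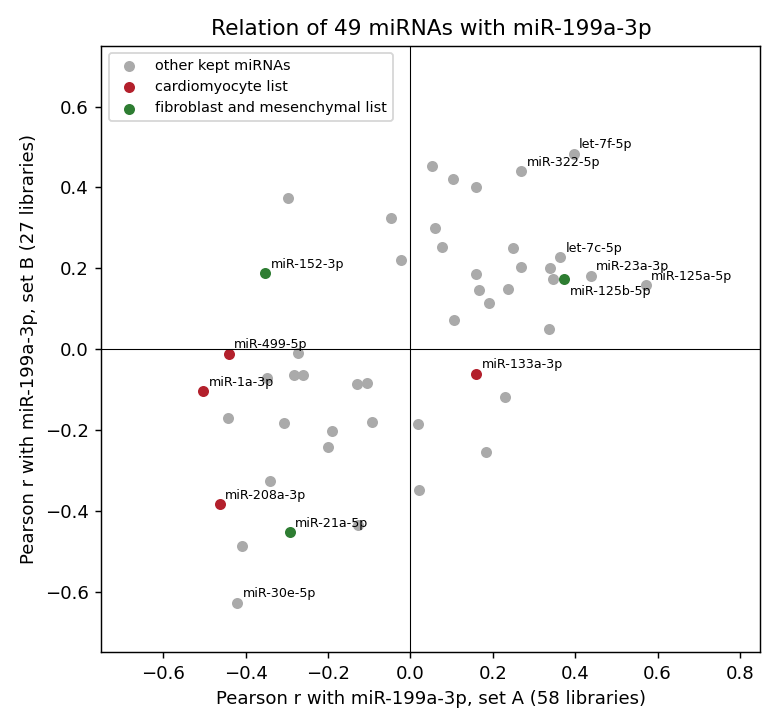
Pearson r of 49 kept miRNAs with miR-199a-3p in set A (58 libraries, x axis) and in set B (27 libraries, y axis), with the cardiomyocyte list in red and the fibroblast and mesenchymal list in green. miR-1a-3p, miR-208a-3p and miR-499-5p lie at -0.44 or lower in set A, let-7f-5p lies high in both sets and miR-30e-5p low in both.

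Markers of the cell type for which the family is named did not follow miR-199a-3p as a group. Fibroblasts are defined by mRNAs, which were not analysed here, so the label was checked only against other miRNAs rich in fibroblasts and mesenchymal cells. Of 6 on that list 3 passed the filter and 1 passed the test in set A, miR-125b-5p (r = 0.37, rho 0.45, adjusted p = 0.0349). This call was lost with DESeq2 size factors (adjusted p = 0.0634), without a filter (0.386) and with the library total held fixed (0.134), and its r was 0.10 in libraries 11 to 48 and -0.06 in libraries 60 to 85. miR-21a-5p, which rises in activated fibroblasts, had r = -0.29 (adjusted p = 0.0918) in set A and -0.45 (adjusted p = 0.0803) in set B, and miR-152-3p had -0.35 (adjusted p = 0.0516) and 0.19 (adjusted p = 0.531). The summed level of the list ran from 11125 to 27566 CPM in set A (median 17445) and from 21628 to 67704 CPM in set B (median 33860), with 0 of its 6 rows at 0. Most of that gap was miR-125b-5p, at 8781 CPM pooled over set A and 29210 CPM over set B. miR-21a-5p went the other way, from 5339 to 2906 CPM, and the other 4 rows were higher in set B. On a list of 12 miRNAs tied to fibrosis 10 passed the filter and 2 passed the test in set A, miR-125b-5p and miR-101a-3p (r = -0.41, adjusted p = 0.0161), and 0 in set B. The set A count is near the 22.4% called among all 49 miRNAs, and the call of miR-101a-3p was lost without library 14 (permutation adjusted p = 0.0684), without a filter (0.372) and with the library total held fixed (0.101). miR-29a-3p, which holds down collagen genes, had 24472 counts and r = 0.27 (adjusted p = 0.126) in set A.

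The remaining cell type lists had 0 calls in either set. The endothelial miRNAs had a median r of -0.31 (set A) and -0.04 (set B). That of the smooth muscle miRNAs was 0.18 and -0.01. The leukocyte list summed to 6863 to 42041 CPM in set A (median 18045) and 3487 to 10312 CPM in set B (median 5312). That fall was in the miR-142a arms, miR-142a-3p going from 16868 to 2384 CPM pooled, while miR-223-3p went from 705 to 1696 CPM and miR-150-5p from 303 to 1446 CPM. The 1 kept miRNA of the list, miR-142a-3p, had r = -0.34 (permutation adjusted p = 0.0523) in set A. The erythroid list had a median of 3481 CPM in set A and 3419 CPM in set B, while its rows moved in opposite directions. From set A to set B miR-451a went from 2939 to 1933 CPM pooled and miR-144-3p from 499 to 45.4 CPM. miR-486a-5p went from 871 to 1933 CPM. Only miR-451a of these was kept and tested. The part of cell composition in the level of miR-199a-3p was not tested.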

How the data were processed

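Per the labels and the study's methods, total RNA was extracted with a miRNeasy kit, libraries were made with the QIAseq miRNA kit and sequenced as single reads of 50 bases. The submitters' processing notes name HISAT2 2.0.6, HTSeq 0.13.5 and mm10. The authors deposited whole-number counts per miRNA, not normalized. The miRNA annotation, strand setting and any use of molecular identifiers are not given in the sources used here, and reads that fit several hairpins cannot be resolved afterwards. Precision is set by 1457 to 30202 counts per library.

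From the counts, edgeR 4.0.16 (R 4.3.3) gave TMM factors, filterByExpr (10 counts in at least 63 libraries; 51 of 548 rows kept, 95.7% of counts), log2 CPM with a prior count of 2, and dispersions. Variation was tested by chi-square of counts against scaled totals, and ratios by chi-square of tables of 2 rows by library, with scipy 1.17.1. Correlations used 100000 permutations, two-sided. All p-values were adjusted by Benjamini-Hochberg, with a threshold of 0.05. Libraries were split into 2 sets by 2-means on the first principal component without the family. Scripts were tested on simulated data. The chi-square p-values measure departure from counting error. The permutation p-values take libraries as units, and the relation between libraries is unknown because their strains are not labelled.

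The members and lists were chosen with earlier results of these data known. Named miRNAs were the members, the fixed lists and the 5 most like miR-199a-3p. Besides these, miR-1b-5p and miR-30e-5p were named for their calls. The planned correlation of members required rows past the filter. Only miR-199a-3p and its copy passed, so members with at least 100 pooled counts were used instead, a choice made after seeing the data. Sequences came from RefSeq (GRCm38.p6; 463 of 548 rows matched) and host genes from GENCODE. DESeq2 1.42.0 size factors, plain CPM, no filter, a prior count of 0.5 and a depth minimum were the alternatives.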

Additional observations from a re-analysis of the deposited data

How the results depend on the processing

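miR-199a-3p was higher in set B than in set A under all alternatives run, by 0.202 without a filter to 0.729 with plain CPM on the log2 scale. Over all alternatives, 67 recomputed values of the main results held and 19 moved. A value that held can still change in size, as this difference did from 0.452 to 0.202 without a filter. Of the other recomputed values 306 held, 4 moved, 40 became weaker, 11 became stronger and 18 reversed in sign. Without a filter, variation beyond counting error was found for 4 members in place of 2 over all libraries, 3 in set A and 2 in set B. The share of all 548 rows passing without a filter is not given here, so these counts have no background. With rows of a mean of at least 5 counts it was found for 4 in all libraries, set A and set B. Of all 93 such rows 93.5%, 76.3% and 76.3% passed. Each count holds miR-199a-3p and its copy miR-199b-3p as 2 rows. With at least 20 counts over a pair, 1 ratio passed in set A (miR-199a-5p against miR-199b-5p) and 1 in set B (miR-199a-3p against both 5p rows), against 0. The median over single libraries gave 30.6% for the share of miR-199b-5p (33.02% pooled) and 100% for miR-214-5p (77.8% pooled). In set A 1 pair of members passed with DESeq2 size factors (1), plain CPM (1) and a prior count of 0.5 (1), each time the 5p rows, with r = 0.354, 0.387 and 0.460.

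The miRNAs related to miR-199a-3p changed in number with several alternatives, and the cause was not tested. In set A 26 passed with plain CPM, 1 without a filter and 5 with the log2 total held fixed, against 11, and 0 in each run of set A alone. In set B 5 passed with DESeq2 size factors, 6 with plain CPM and 0 without a filter, against 1. For miR-1a-3p in set A the adjusted p was 0.372 without a filter and 0.101 with the total held fixed, for miR-208a-3p 0.0610 with plain CPM and 0.0677 without a filter, for miR-499-5p 0.137 and 0.101, and for miR-30e-5p 0.379 and 0.442, with 0.195 with the total held fixed and 0.0832 without library 14. In set B without a filter the r of miR-30e-5p was -0.0153.

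Reversed in sign were the following values of r, all small in the main analysis or over fewer libraries. For miR-199a-3p with miR-199a-5p in set A they were -0.0290 (DESeq2), -0.0218 (no filter), -0.0500 (prior count 0.5) and -0.0967 (without the 2 farthest libraries). For miR-199a-3p with miR-199b-5p they were 0.0616 (plain CPM), 0.0825 (libraries of at least 5000 counts) and 0.0892 (total held fixed) in set A, and -0.0526 (no filter) in set B. In set B without a filter miR-125a-5p came to -0.0580, miR-23a-3p to -0.0461, miR-1a-3p to 0.328 and miR-499-5p to 0.239. With the total held fixed miR-1a-3p came to 0.0341 and miR-499-5p to 0.162, and with plain CPM miR-499-5p to 0.00161. In the set A libraries 60 to 85 miR-125a-5p came to -0.0622, miR-125b-5p to -0.0616 and miR-30e-5p to 0.0271.

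No paired analysis was possible because the libraries form 1 group. Depth limits the 5p rows, and for miR-214 it leaves only a pooled level.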
